A study of Mus musculus with 2 samples.

Results

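The genes described here are 35 members of the unfolded protein response of the endoplasmic reticulum (ER), out of 20887 genes named on the array. They were chosen by symbol: gene probes whose RefSeq accession maps to a listed gene were taken, and each gene was represented by its brightest probe. All 35 had a probe, and all 35 were measured on both arrays, that is, well above background with no saturated spot. They comprise 11 chaperones and co-chaperones, 4 disulphide isomerases, 8 genes of ER-associated degradation, 2 genes of the translocon, 4 stress sensors with their factors, and 6 genes of the arm that runs through Atf4 and Ddit3. The cells were primary pericytes, which line the outside of capillaries and can contract, taken from the corpus cavernosum of C57BL/6 mice. One group was kept in high glucose, labelled 30 mmol, and the other in normal glucose, labelled 5 mmol, each for 72 h, and the labels give no volume for either amount. Both groups were grown in the same serum-containing medium with human pigment epithelium-derived factor, and an osmotic control is not used here. Each condition is 1 pool made from the RNA of 3 samples and read on 1 Agilent array with 1 colour, so there is no replicate, no test and no p-value, and every difference is between these 2 pools.

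Of 10 pericyte markers, 9 were measured on both arrays, and Kcnj8 was the one missing on both. All 6 smooth muscle and all 6 fibroblast markers were also measured, so marker detection does not set the labelled cells apart from these types. Of 7 endothelial markers, 3 were measured, Kdr with signals of 7075 in high and 7379 in normal glucose and the dim Pecam1 and Vwf, whereas Cdh5, Tek, Tie1 and Cldn5 were not well above background on either array. Of 6 markers of plasma cells, which are rich in ER chaperones, only Sdc1 was measured, with 5859 in high and 4806 in normal glucose and a log2 ratio of 0.37, and Jchain, Mzb1, Tnfrsf17, Irf4 and Cd79a were not well above background on either array. In pooled RNA, fewer cells of a type and less RNA per cell cannot be told apart. In high glucose 57.6% of 59305 gene spots were well above background, against 56.3% in normal glucose, and both arrays lay on 1 slide.

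Proteins that enter the secretory pathway fold in the ER with the help of chaperones, lectins and disulphide isomerases, and those that fail are exported and degraded. When unfolded proteins accumulate, 3 membrane sensors respond. Atf6 and the Ern1 (IRE1) target Xbp1 are known to raise chaperone and degradation genes, whereas Eif2ak3 (PERK) phosphorylates the initiation factor eIF2, which slows translation in general but favours translation of Atf4. Atf4 and its target Ddit3 (CHOP) then act on amino acid, redox and cell death genes, and the same branch can be entered without ER stress through other eIF2 kinases, for example when amino acids are scarce. Pericytes secrete matrix proteins and depend on this machinery for their collagen.

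The promoters of these branches are known to carry different sequence elements, which are shown because the comparison below sets the genes of these branches against each other. Promoter entries from RefSeq, build GRCm38.p6, matched 31 of the 35 genes, and each covers 250 bases before and 50 after the transcription start. The entries were searched on both strands for 3 textbook consensus elements. The ER stress response element (ERSE) is CCAAT and CCACG with 9 bases of any kind between them. ERSE-II is ATTGG and CCACG with 1 base between them, and the element bound by C/EBP and ATF factors is TGATG and AA with 1 base between them. An ERSE was found in 7 of 13 chaperone and isomerase genes with an entry and in 2 of 7 degradation genes, against 0.119% of all 32851 promoter entries. Here and below, members are counted as genes and the background as entries, which cover 27025 genes, so some genes have several entries. Because such promoters are already known to carry these elements, the shares given here and below are a description and not a test. The matches, in capitals with 8 flanking bases on each side, read as follows on the strand of the gene. A match on the other strand appears as the reverse complement.
Hspa5, chr2:34772017-34772051, plus strand: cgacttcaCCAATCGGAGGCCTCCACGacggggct
Hsp90b1, chr10:86705630-86705664, minus strand: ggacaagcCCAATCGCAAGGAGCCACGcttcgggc
Hsp90b1, chr10:86705525-86705559, minus strand: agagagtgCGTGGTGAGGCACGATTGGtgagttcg
Calr, chr8:84847067-84847101, minus strand: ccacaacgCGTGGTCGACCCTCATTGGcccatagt
Canx, chr11:50325792-50325826, minus strand: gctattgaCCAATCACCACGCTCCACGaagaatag
Dnajc3, chr14:118937819-118937853, plus strand: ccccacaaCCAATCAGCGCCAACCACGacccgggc
Creld2, chr15:88819512-88819546, plus strand: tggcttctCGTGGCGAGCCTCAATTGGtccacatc
Pdia6, chr12:17266483-17266517, plus strand: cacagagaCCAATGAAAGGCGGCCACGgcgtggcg
Syvn1, chr19:6046524-6046558, plus strand: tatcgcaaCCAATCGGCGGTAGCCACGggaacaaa
Derl3, chr10:75893234-75893268, plus strand: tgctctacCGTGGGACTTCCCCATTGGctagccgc

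ERSE-II was found in 2 genes, against 0.0365% of all entries, and is shown the same way in capitals. In Dnajb11 it lies 8 bases after the start and in Herpud1 42 bases before it.
Dnajb11, chr16:22857844-22857870, plus strand: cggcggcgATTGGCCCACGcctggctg
Herpud1, chr8:94386369-94386395, plus strand: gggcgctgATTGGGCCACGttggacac

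The C/EBP-ATF element is short, and 3.97% of all entries hold it. It was found in 3 of the 6 genes of the Atf4-Ddit3 arm and in none of the 13 chaperone and isomerase genes with an entry. It was also found in 1 degradation gene, Herpud1, which therefore holds an element of both kinds. In Trib3 the match lies 15 bases after the start. The matched 8 bases are in capitals.
Chac1, chr2:119351041-119351064, plus strand: ccctgccgTTGCATCActcctgcc
Asns, chr6:7693217-7693240, minus strand: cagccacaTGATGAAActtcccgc
Trib3, chr2:152344031-152344054, minus strand: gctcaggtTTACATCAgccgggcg
Herpud1, chr8:94386309-94386332, plus strand: acggcgggTTGCATCAgcccgcac

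For context, the 250 bases before the start are given for 3 genes, with each match in capitals: Hspa5 with an ERSE, Herpud1 with ERSE-II and the C/EBP-ATF element, and Chac1 with the C/EBP-ATF element. No pair of matches overlapped in any member. A match is a description of letters, not of a bound site, and the absence of one says only that these letters are not in this window.
Hspa5, chr2:34771840-34772089, plus strand: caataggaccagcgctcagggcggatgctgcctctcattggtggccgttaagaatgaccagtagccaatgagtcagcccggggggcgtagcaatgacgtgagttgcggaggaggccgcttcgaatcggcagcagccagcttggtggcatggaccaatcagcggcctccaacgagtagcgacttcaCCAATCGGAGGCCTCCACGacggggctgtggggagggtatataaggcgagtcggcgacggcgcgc
Herpud1, chr8:94386179-94386428, plus strand: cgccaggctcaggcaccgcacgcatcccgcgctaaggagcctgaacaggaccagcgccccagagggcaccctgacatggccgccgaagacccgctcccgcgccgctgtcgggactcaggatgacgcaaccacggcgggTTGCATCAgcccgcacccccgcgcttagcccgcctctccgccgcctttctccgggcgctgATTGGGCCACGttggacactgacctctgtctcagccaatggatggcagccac
Chac1, chr2:119350992-119351241, plus strand: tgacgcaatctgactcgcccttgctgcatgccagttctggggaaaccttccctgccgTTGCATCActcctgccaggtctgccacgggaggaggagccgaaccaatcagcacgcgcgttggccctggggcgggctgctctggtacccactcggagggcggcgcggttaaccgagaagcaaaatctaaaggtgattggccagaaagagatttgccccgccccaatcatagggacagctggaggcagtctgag

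Signals are given as Agilent's processed signal, a linear brightness after background subtraction. Differences are given as log2 ratios, high glucose over normal glucose, after each array's 75th percentile over probes had been subtracted, which was a signal of 732.7 in high and 774.4 in normal glucose. A gene with slightly lower raw signal in high glucose can therefore have a ratio just above 0. Signals of different probes are not compared with each other. Error within the arrays was read from probes printed 10 times: the log2 ratio of 1 spot had a median SD of 0.032 for probes brighter than 4096, 0.044 for those between 512 and 4096, 0.10 for those between 128 and 512, and 0.25 for dimmer ones. The error that the scanner software itself gives for a spot is wider and came to between 0.204 and 0.234 on the log2 ratio for the members. Neither covers differences between cultures, which were not measured.

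As a whole the 35 genes hardly differed between high and normal glucose. Their median log2 ratio was -0.0043, against -0.0073 for all 14176 named genes measured on both arrays. Of the 35 members 2 were lower by at least 1.2-fold, Trib3 and Ddit3, where 5.51% of all genes and 1.07% of the genes brighter than the median gene were. No member was higher by at least 1.2-fold, where 6.8% of all genes and 2.06% of the brighter genes were; 30 of the 35 members belong to these brighter genes. The members within 0.1 of 0 on the log2 scale numbered 23, or 65.7%, where 60.2% of all genes and 76.1% of the brighter ones were. The plot of processed signals shows nearly level lines for most genes and steeper ones, lower at the high glucose end, for Dnajc3, Ddit3 and Trib3.

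**Figure D1:**
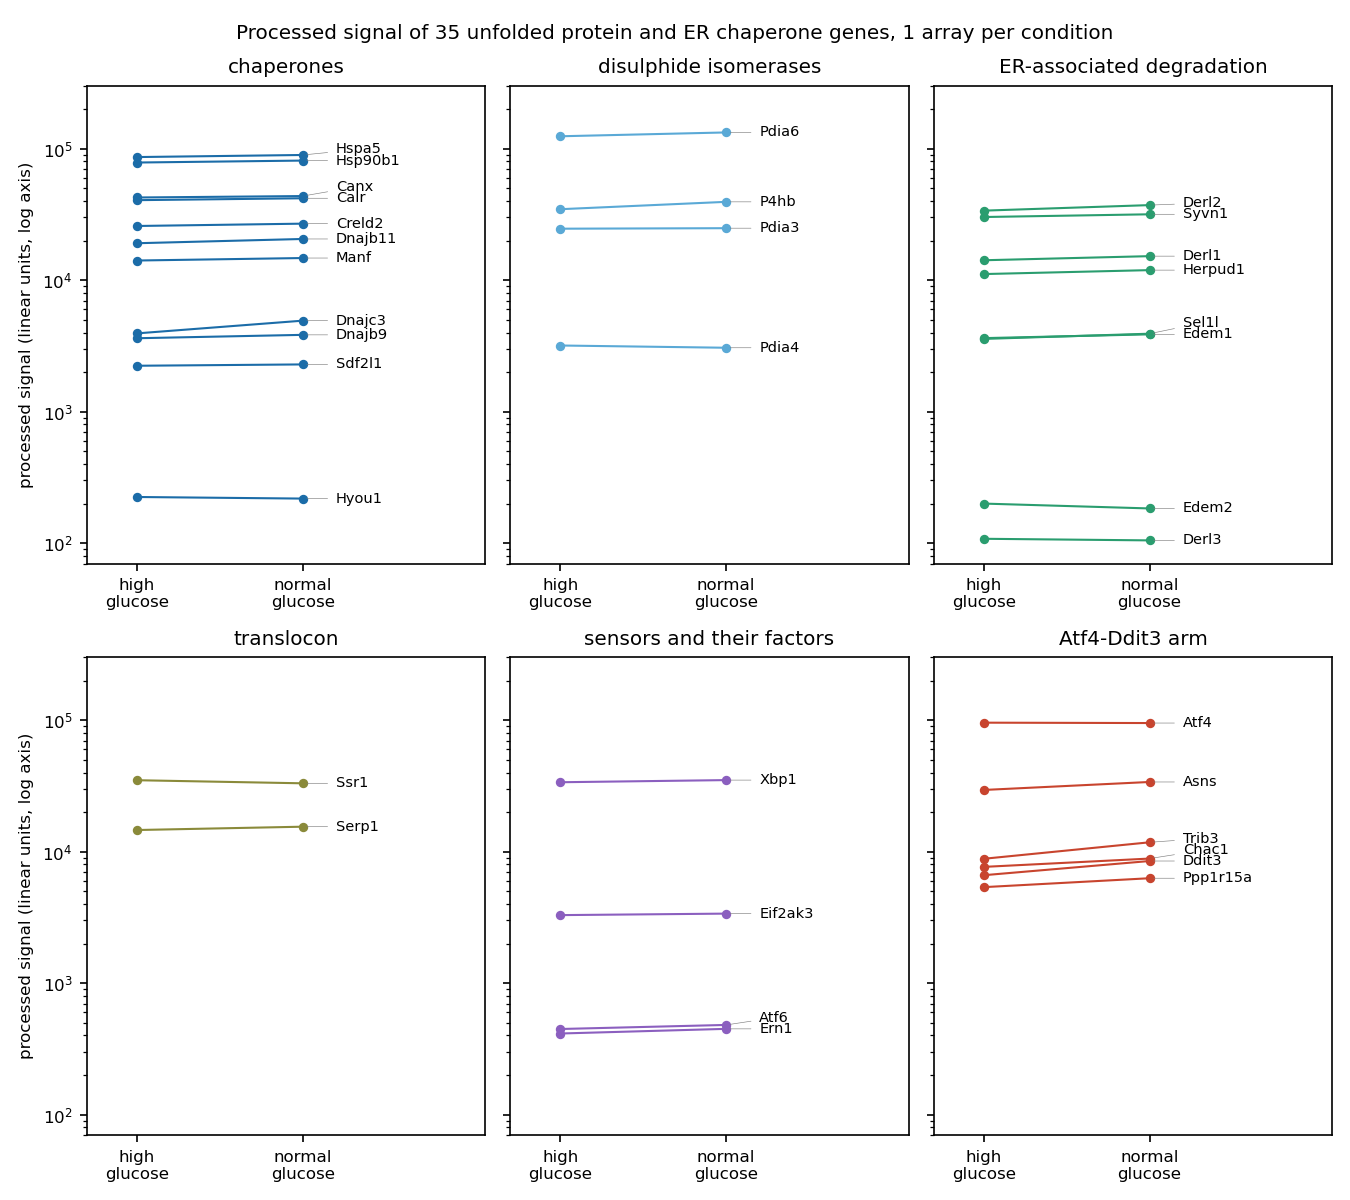
Processed signal (log axis) of the 35 genes, in 6 panels by role, with high glucose left and normal glucose right; each point is 1 array and each line 1 gene. Trib3 (8833 against 11789) and Ddit3 (6624 against 8496) have the lines that differ most in the Atf4-Ddit3 arm, and Dnajc3 (3940 against 4924) the one that differs most among the chaperones.

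The main chaperones differed little, with log2 ratios between 0.027 and 0.044 beside a spot SD of 0.032. Hspa5 (BiP), the Hsp70-type chaperone whose release from the sensors is a known trigger of the response, had a signal of 86419 in high and 89627 in normal glucose, a log2 ratio of 0.027. Hsp90b1 (GRP94), the Hsp90-type chaperone of the ER, had 78532 in high and 81263 in normal glucose, a ratio of 0.031. Both ratios were below the SD of 1 spot. The calcium-binding lectin chaperones, which hold glycoproteins during folding, followed: Calr (calreticulin) had 40622 in high and 41995 in normal glucose with a ratio of 0.032, and Canx (calnexin) 42570 and 43648 with 0.044.

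Creld2 and Manf, secreted ER proteins that are known targets of the response, showed as little difference. The Creld2 probe was printed 10 times, and its spots ran from 25105 through a median of 25796 to 26795 in high glucose, against 25976, 27010 and 27934 in normal glucose. The log2 ratio averaged 0.021 ± 0.030 (SD over 10 spots of the same pair of pools) and ran from -0.043 to 0.077, so the spots lay on both sides of 0. Manf had a signal of 14115 in high and 14744 in normal glucose, with a ratio of 0.017.

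Among the co-chaperones of Hspa5, Dnajc3 stood apart. Dnajc3 is a J-domain protein of the ER lumen, also known as an inhibitor of the kinase Eif2ak3. Its signal was 3940 in high glucose and 4924 in normal glucose, 1.18-fold lower with a log2 ratio of -0.24. This was larger than the spot SD of 0.032 and than the software's spot error of 0.204, but rested on 1 probe printed once. Of the other J-domain proteins, Dnajb11 (ERdj3) had 19105 in high and 20588 in normal glucose with a ratio of -0.028. Dnajb9 (ERdj4) had 3619 in high and 3840 in normal glucose with a ratio of -0.0056, but the same spot gave -0.10 from its median pixel and the dimmer second probe -0.13. Sdf2l1, the partner of Dnajb11, had 2235 in high and 2288 in normal glucose with 0.046. Hyou1, the exchange factor of Hspa5, had a ratio of 0.12 from the low signals 224 and 218, close to the spot SD of 0.10 in that band.

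The disulphide isomerases went both ways by small amounts. Pdia4 had a signal of 3187 in high and 3064 in normal glucose, a log2 ratio of 0.14. Pdia3 (ERp57), the isomerase that works with calreticulin and calnexin, had 24646 in high and 24866 in normal glucose, a ratio of 0.067. Pdia6 had a ratio of -0.017, and its second probe gave -0.025. P4hb, the classical disulphide isomerase and also a subunit of the collagen prolyl hydroxylase, had 34673 in high and 39448 in normal glucose, a ratio of -0.11. All 4 ratios were inside the software's spot error. Those of Pdia4, Pdia3 and P4hb exceeded the spot SD of their bands, 0.044, 0.032 and 0.032. The 15 chaperones and isomerases together had a median of 0.027, with 10 higher and 5 lower, where 53.2% of all genes and 55.1% of the genes brighter than the median gene were lower. This count depended on the processing: 12 of the 15 were lower with the arrays centred on their medians and 8 with normexp background correction. Their median was then -0.034 and -0.00071. The median over all genes was lower in these settings as well, at -0.068 and -0.019.

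Genes of ER-associated degradation had a median of -0.018 over 8 genes, and none exceeded the software's spot error. Sel1l, Derl2 and Edem2 exceeded the spot SD of their bands, 0.044, 0.032 and 0.10. Herpud1, a membrane scaffold of the export complex, had 11134 in high and 11929 in normal glucose, a ratio of -0.020. The ubiquitin ligase Syvn1 (HRD1) had 30241 and 31717 with 0.011, and its adaptor Sel1l 3576 and 3918 with -0.052. Of the mannose-trimming Edem proteins, Edem1 had a ratio of -0.016. Edem2 had 0.20 from signals of 200 in high and 184 in normal glucose, the highest ratio among the members, where the spot SD is 0.10. The derlins, membrane proteins of the export channel, had -0.024 for Derl1, -0.060 for Derl2 and 0.12 for Derl3. The other probes of Derl2 gave 0.065 and -0.059, and the second probe of Derl1 -0.054. The Derl3 signals were 108 in high and 105 in normal glucose, in a band with a spot SD of 0.25.

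The translocon genes and the sensors gave 1 difference beyond the spot SD. Ssr1, a subunit of the translocon-associated complex, had 34970 in high and 33128 in normal glucose, a log2 ratio of 0.16, but its other probes gave 0.043 and 0.0054. Serp1 (RAMP4), which binds the translocon, had -0.0043. The transcripts of the sensors were nearly the same: Atf6 had 448 in high and 481 in normal glucose with a ratio of -0.023, Ern1 414 and 449 with -0.038, and Eif2ak3 3294 and 3381 with 0.042. Xbp1 had 33753 in high and 35043 in normal glucose, a ratio of 0.026. These values are transcript levels. The splicing of Xbp1, the cleavage of Atf6 and the phosphorylation of the kinases, by which these proteins are activated, were not analysed here.

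The Atf4-Ddit3 arm lay lower in high glucose in 5 of its 6 genes, a share of 83.3%, where 53.2% of all genes and 55.1% of the brighter ones were lower. Trib3, a pseudokinase induced by Atf4 and Ddit3, had a signal of 8833 in high glucose and 11789 in normal glucose, 1.26-fold lower with a log2 ratio of -0.34. Ddit3, the transcription factor CHOP linked to cell death under lasting stress, had 6624 in high and 8496 in normal glucose, 1.21-fold lower with a ratio of -0.28. Both differences exceeded the spot SD of 0.032 and the software's spot error of 0.204. Of all 35 members only these and Dnajc3 did so for the software's error, 3 in all, where 15.6% of all genes and 5.64% of the brighter genes did.

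The other targets were lower by less. Ppp1r15a, the subunit that directs a phosphatase to eIF2 and ends the translation block, had 5375 in high and 6284 in normal glucose, a log2 ratio of -0.15. Chac1, which degrades glutathione, had 7663 and 8868 with -0.13. Asns, asparagine synthetase, had 29482 and 33912 with -0.12. These 3 ratios exceeded the spot SD and stayed inside the software's spot error. Atf4 itself, which is controlled mainly by translation, had 95812 in high and 95190 in normal glucose, a ratio of 0.089, and its second probe gave -0.047. Each of the 5 lower genes has 1 probe, so none of them has a second probe to set beside it.

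The size of the Trib3 difference depended on how the spot was read. From the median pixel minus local background it was -0.25, just short of 1.2-fold, and with the local trend of bright neighbouring spots removed it was -0.39. Ddit3 had -0.34 from the median pixel and -0.29 with the trend removed, and Dnajc3 -0.24 in both. No member spot carried an outlier flag on either array.

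**Figure D2:**
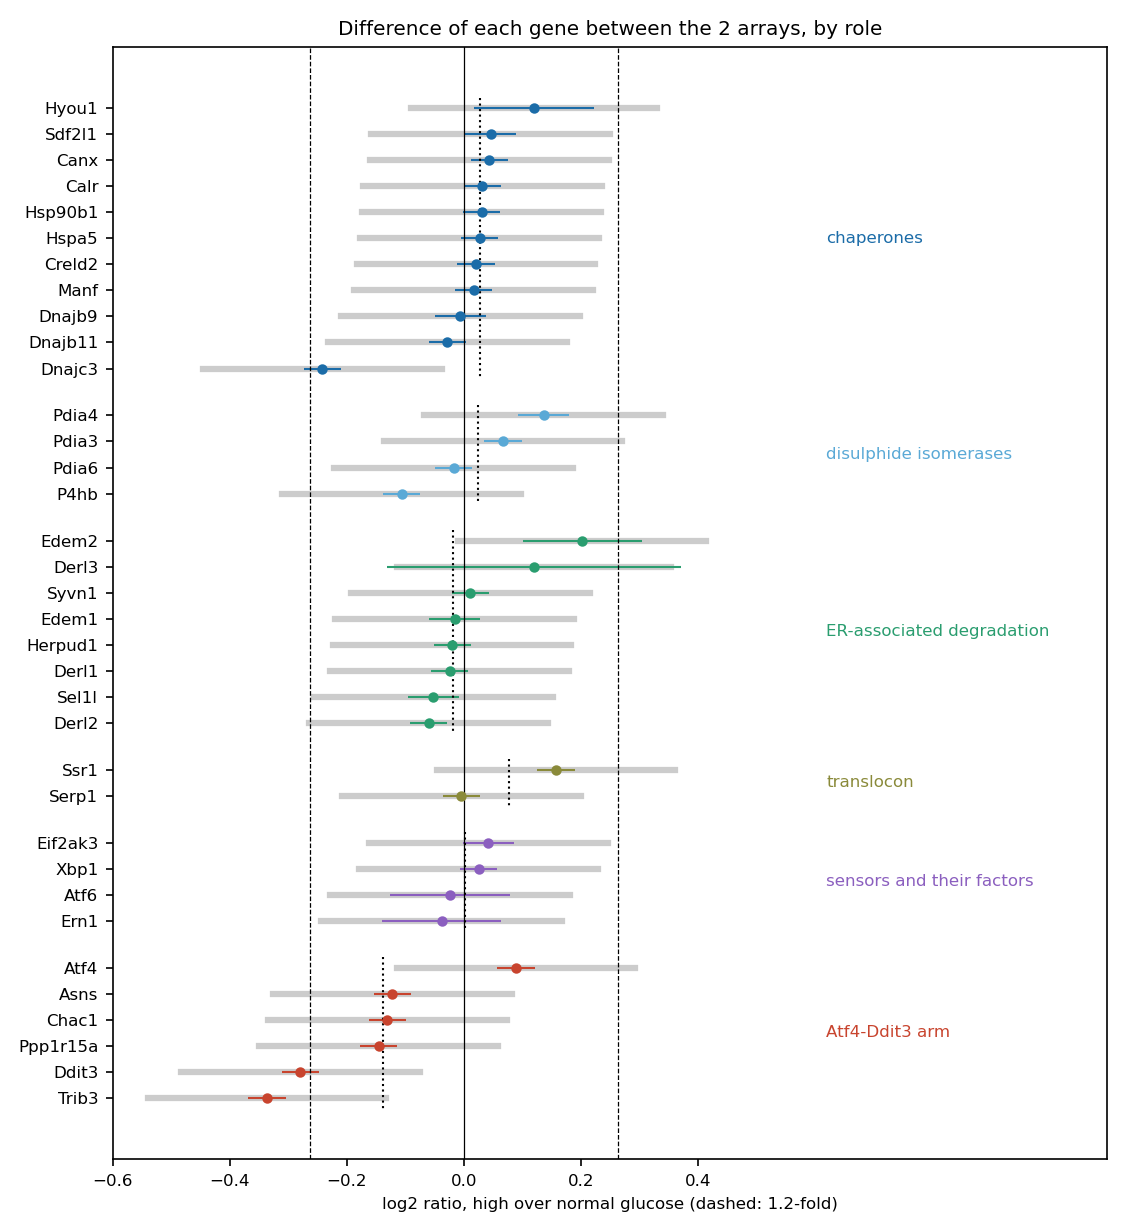
Log2 ratio of high over normal glucose (x axis) for each of the 35 genes, by role; coloured bars are the SD of 1 spot in the gene's signal band, grey bars the scanner software's spot error, dotted lines the group medians and dashed lines 1.2-fold. Only Trib3 at -0.34, Ddit3 at -0.28 and Dnajc3 at -0.24 have grey bars that do not reach 0.

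Set against each other, the chaperones and isomerases had a median log2 ratio of 0.027 and the Atf4-Ddit3 arm one of -0.14, a difference of 0.17. Of the 15 chaperones and isomerases 14 lay above the median of the arm, Dnajc3 being the exception, while within the arm Atf4 lay above 13 of the 15. Most genes on the array also lay above the arm's median. Of all genes 60.2%, and of the brighter ones 76.1%, were within 0.1 of 0 and so above it. The exact shares above the arm's median and below Atf4 were not counted, so these counts do not set the chaperones and isomerases apart from other genes. The difference of 0.17 between the 2 medians does not depend on the zero point, since a shift of 1 array moves both groups alike. It was 0.14 with quantile normalization. For the members' second probes it was -0.031, but these cover 2 folding genes and 1 gene of the arm. With 1 array per condition the difference has no replicate check. Fibroblast markers were lower for 5 of 6, a median of -0.12 and a summed level, relative to the 75th percentile, of 322 in high and 335 in normal glucose. Pericyte markers had a median of -0.097 with 5 of 9 lower and summed levels of 149 and 153. Smooth muscle markers were higher for 6 of 6, with a median of 0.093 and summed levels of 859 in high and 841 in normal glucose. Immune markers were higher for 4 of the 5 measured, with a median of 0.12 and summed levels of 9.88 and 9.03. The other immune marker, the dim Cd74, had 27.9 in high and 89.2 in normal glucose, a log2 ratio of -1.60. Over all genes 53.2% were lower. The part of these marker shifts in the result was not tested.

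The ratios were also read by the promoter elements shown above. The 11 members with an ERSE or ERSE-II had a median log2 ratio of 0.021, from -0.24 for Dnajc3 to 0.12 for Derl3. The 14 others outside the Atf4-Ddit3 arm that have a promoter entry had a median of 0.011, from -0.11 for P4hb to 0.20 for Edem2. Herpud1, with both kinds of element, had -0.020. In the Atf4-Ddit3 arm, Trib3, Chac1 and Asns hold the C/EBP-ATF element in the window and Ddit3, Ppp1r15a and Atf4 do not. The ratios of both sets ran side by side, from -0.34 to -0.12 with the element and from -0.28 to 0.089 without it.

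Where a member had more than 1 measured probe, their log2 ratios spanned less than the ratios of Trib3 and Ddit3. This could be read for 6 genes. The span was 0.0074 for Pdia6, 0.030 for Derl1, 0.12 for Dnajb9, 0.13 for Derl2, 0.14 for Atf4 and 0.15 for Ssr1. Over 1842 named genes with 2 probes of signal at least 512, the ratios of the 2 brightest differed by a median of 0.061, and by at least 0.2 in 10.0% of them. The difference was below 0.26 for 95% of these genes. As reported, the ratios of Trib3 and Ddit3 exceed this value and those of Dnajc3, Ppp1r15a, Chac1 and Asns do not. Trib3 stayed inside it at -0.25, both from the median pixel and with normexp background correction. The value is a spread between 2 probes of 1 gene, not the error of 1 probe's ratio.

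The rest of the pathway was read from 6 lists with 190 further genes, of which 186 were measured on both arrays. Their median was -0.0070, with 8 higher and 5 lower by at least 1.2-fold, or 4.30% and 2.69%. These shares lie below those of all genes, 6.8% higher and 5.51% lower. They lie above those of the genes brighter than the median gene, 2.06% higher and 1.07% lower. Other ER folding genes had a median of 0.0021 and none of 35 passed 1.2-fold. The extremes on the high side were the glycoprotein folding sensor Uggt1 at 0.26, but -0.19 with its second probe, and the thioredoxin-like Tmx1 at 0.25. On the low side were the cyclophilin Ppib at -0.17 and the oxidase Ero1b at -0.12. The ER to Golgi transport genes had a median of -0.0070 over 25 genes, again with none past 1.2-fold. Sar1a and Sec24b of the COPII coat had 0.061 and 0.060, but the second probe of Sar1a gave -0.067. Copz1 of the COPI coat and the cargo receptor subunit Mcfd2 had -0.13 and -0.12.

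Other degradation genes had a median of 0.0052 over 24 genes. Dnajb2, a cytosolic J-domain protein, had a log2 ratio of 0.32 and 0.36 with its second probe, and the lectin Erlec1 had 0.20. Ngly1, the enzyme that removes glycans from exported proteins, had -0.42 from the dim signals of 108 in high and 153 in normal glucose, and Ubxn4 had -0.23. Other genes of the translocon and ER entry had a median of 0.015 over 31 genes. The signal peptidase subunit Spcs3 had 0.26, but -0.054 with its second probe. The signal recognition particle subunit Srp54a had 0.13, against -0.21 for Ddost of the oligosaccharyl transferase and -0.12 for the receptor subunit Srpr.

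Other sensors and regulators had a median of -0.022 over 26 genes, with 3 higher by at least 1.2-fold and none lower, where 6.8% of all genes were higher and 5.51% lower. Creb3l4, a membrane-bound transcription factor of the Atf6 type, had 600 in high and 418 in normal glucose, 1.52-fold higher. Atf6b, the paralogue of Atf6, had 991 in high and 771 in normal glucose, 1.36-fold higher, while Atf6 itself had a log2 ratio of -0.023. The other gene past 1.2-fold was the apoptosis effector Bax at 0.40, named after its value was seen. Creb3l4 and Atf6b rest on 1 probe each. Ern2, the epithelial form of Ern1, had -0.18 from dim signals of 44.1 and 52.8, and Mbtps2, a protease that cleaves Atf6, had -0.14 and -0.37 by its 2 probes.

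The list nearest to the Atf4-Ddit3 arm, other Atf4 and amino acid response genes, had a median log2 ratio of -0.039 over 45 genes. Of these 29, or 64.4%, were lower, where 53.2% of all genes and 55.1% of the genes brighter than the median gene were. By at least 1.2-fold 4, or 8.89%, were lower and 3, or 6.67%, higher. The shares were 5.51% lower and 6.8% higher over all genes, and 1.07% and 2.06% over the brighter genes. The stress gene Gadd45a had 1681 in high and 2283 in normal glucose, 1.28-fold lower, and Slc7a3, a transporter of cationic amino acids, had 340 and 461, also 1.28-fold lower. The other genes of this list past 1.2-fold, named after their values were seen, were Mthfd2 and Vldlr, both at -0.32, and Yars at 0.27. On the other side, Slc7a11, the cystine transporter, had 0.34 from the dim signals of 34.3 and 28.7, and the AP-1 repressor Jdp2 had 4902 in high and 4287 in normal glucose, a ratio of 0.27. The plot of the lists shows their medians close to that of all genes and the Atf4-Ddit3 arm below them.

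**Figure D3:**
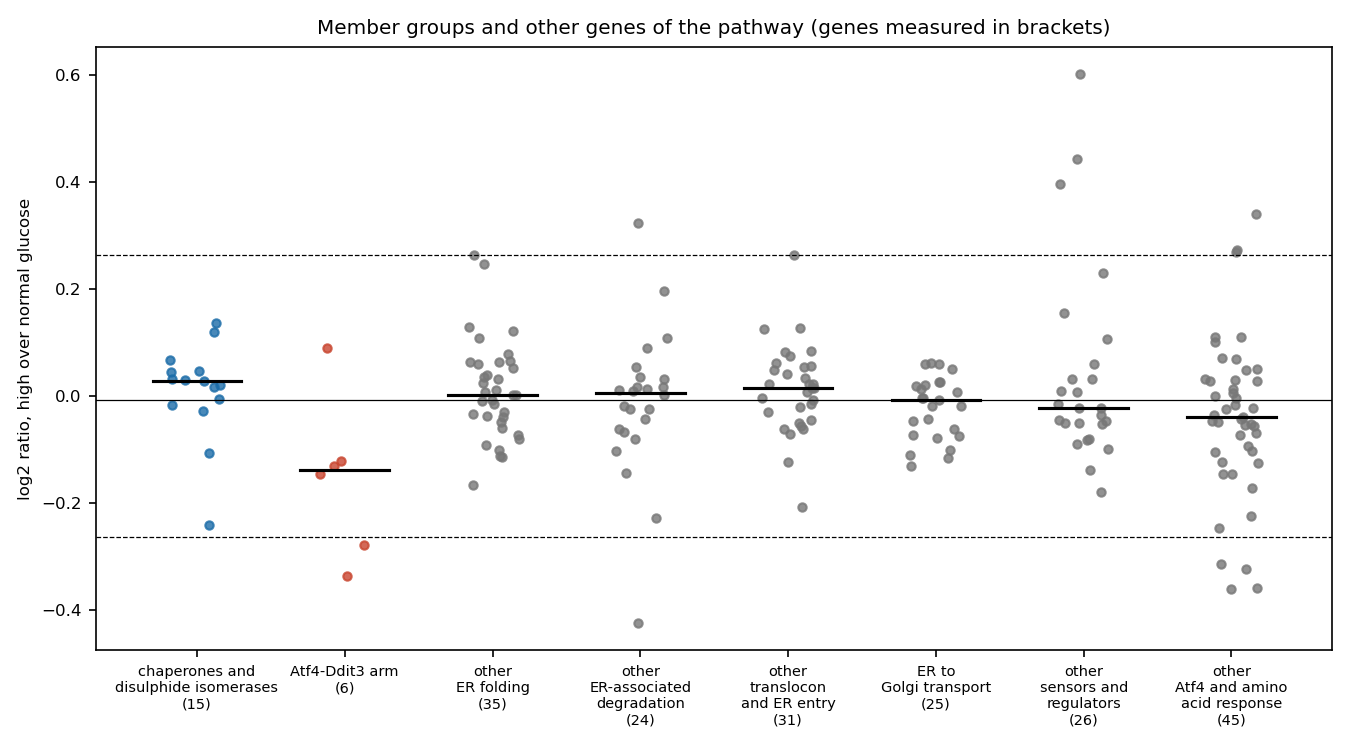
Log2 ratio of high over normal glucose (y axis) for the chaperones and isomerases, the Atf4-Ddit3 arm and 6 lists of other pathway genes; each point is 1 gene, short bars are medians, the thin line is the median of all 14176 genes and dashed lines are 1.2-fold. The medians of the 6 other lists lie between -0.039 and 0.015, and that of the Atf4-Ddit3 arm at -0.14.

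**Figure D4:**
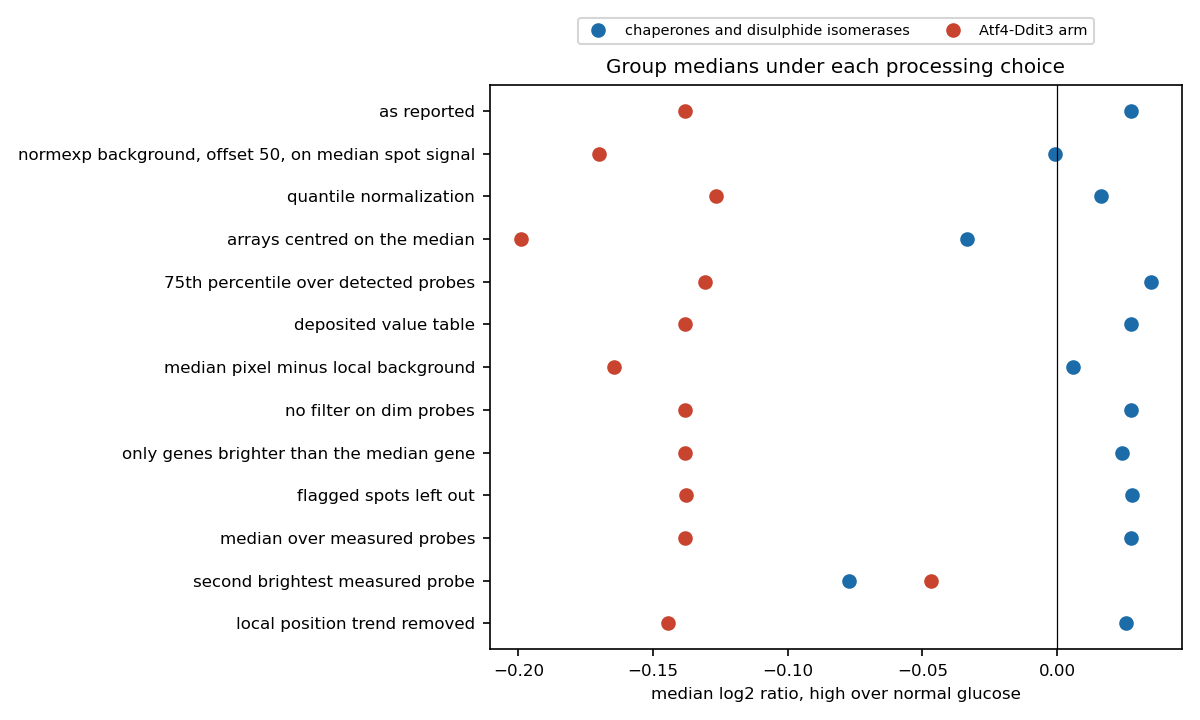
Median log2 ratio of high over normal glucose (x axis) for the 15 chaperones and isomerases and for the 6 genes of the Atf4-Ddit3 arm, as reported and under 12 other processing choices. The arm lies below the chaperones in every row but that of the second probes, which hold 2 folding genes and 1 gene of the arm.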

How the data were processed

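RNA pools of 3 samples per condition were hybridised to 1-colour (Cy3) Agilent arrays. The deposited scanner files name Feature Extraction 11.5.1.1 in their headers, whereas version 9.3.2.1 stands in the submitters' processing notes. The processed signal, per the file headers, is an intensity on a linear scale with background subtracted and no scaling between arrays; other deposited columns are flags of 0 or 1 per spot. The value table deposited by the authors repeats this linear intensity, equal within a relative tolerance of 1e-04 for 55249 of 55249 probes with 1 spot, with column medians of 48.9 for high and 49.6 for normal glucose.

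The log2 processed signal of 59305 gene spots, 3671 control spots left out, was averaged per probe, and the 75th percentile over probes was subtracted. Probes were named through unversioned RefSeq accessions (GRCm38.p6 gene table), and 27509 of 55681 matched 1 symbol, 0 matched several and 28172 stay unnamed. The array design is on mm9, so coordinates are printed only for promoter entries. A gene was measured when its brightest probe was well above background (at least 0.5 of its spots) on both arrays and nowhere saturated. With 1 array per condition no test was run, and the number of arrays limits the precision. Members, lists and rules were chosen with earlier results of these data known. Outside the members, the 2 highest and 2 lowest ratios of each list of other pathway genes are named. The counting step was run on simulated data with changes larger than that of any member and the same noise on all spots. It therefore says nothing about differences as small as those of the members. Alternatives included limma 3.58.1 (normexp, offset 50) in R 4.3.3. The files hold no mean spot signal, so normexp used the median signal. Normexp on that signal and the removal of a local trend (bright spots within 8 rows and columns) were chosen after seeing the data.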

Additional observations from a re-analysis of the deposited data

How the results depend on the processing

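The results were recomputed under 12 alternatives, 2 of them chosen after seeing the data. Centring the arrays on their medians shifted all ratios down, to a median of -0.068 over all genes, and gave medians of -0.034 for the chaperones and isomerases, -0.20 for the Atf4-Ddit3 arm and -0.065 for all members, with Dnajc3 also past 1.2-fold, 3 members in all. Second probes gave -0.077 for 2 folding genes and -0.047 for 1 gene of the arm, a difference of -0.031, and 0 members past 1.2-fold; fewer genes were compared there. The count past 1.2-fold was 1 with normexp and 1 with median pixels, where Trib3 fell short at -0.25. The arm had 5 of 6 genes lower under the 11 alternatives other than second probes. The difference between the groups ranged from 0.14 to 0.17 in these 11. No paired analysis was possible because each condition has 1 array. Signals below 128 had a spot SD of 0.25, which limits Derl3. The planned normexp on the mean spot signal was not run, since the files used here hold no such column; the median signal took its place.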

Other observations

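Among the other pathway genes named above with 2 measured probes, the probes disagreed in sign for 3. The folding sensor Uggt1 had a log2 ratio of 0.26 from signals of 37039 in high and 32625 in normal glucose, and -0.19 from its second probe with signals of 783 and 945. The signal peptidase subunit Spcs3 had 0.26 and -0.054, and the COPII GTPase Sar1a 0.061 and -0.067. For Dnajb2 the probes gave 0.32 and 0.36, for Mbtps2 -0.14 and -0.37, for Srp54a 0.13 and 0.072, and for Vldlr -0.32 and -0.37.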
